A study of Mus musculus with 8 samples.

Results

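Cytosolic ribosomal proteins form the particle that translates messenger RNA outside mitochondria. Their genes were picked by symbol alone, with no cutoff on a measured value, though earlier results of these data were known. Of 18691 genes listed in the deposited files, 96 had a symbol that starts with Rpl or Rps followed by a digit. Leaving out 10 Rps6k kinases and 5 symbols marked as pseudogenes (-ps) gave 81 genes. They comprise 43 large subunit proteins, 30 small subunit proteins, 7 paralogues and Rps19bp1, which encodes a binding partner of Rps19 and is not a ribosomal protein. The 73 subunit genes are called core genes below.

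The tissue was white adipose tissue of the epididymal fat pad from C57BL/6J mice aged 16 weeks. RNA of 4 wild type (WT) samples and 4 samples with the genotype label Mrp4 KO (Mrp4-/-), here called knockout-labelled, was sequenced after poly-A selection. Mrp4, encoded by Abcc4, is a membrane transporter that exports cyclic AMP and prostaglandins. The labels name no treatment and do not describe the allele. Whether every library stems from a separate mouse is not stated either, so p-values measure the spread between these libraries only. The replicate numbers are 1, 2, 3 and 4 for WT, and 1, 2, 4 and 5 for the second group.

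Ribosomal proteins are needed in near equal numbers, one of nearly every kind in each ribosome, and proteins made in excess are degraded. Their messenger RNAs are short, abundant and stable, and most begin with a cytosine followed by a run of pyrimidines (the TOP motif), through which the kinase mTOR controls their translation. In fat cells insulin acts through mTOR on this step, and S6 kinase, which mTOR activates, phosphorylates Rps6.

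The run of pyrimidines at the start of these genes is visible in the RefSeq promoter sequences (GRCm38.p6), which are shown because it is the sequence feature that the family shares and that the choice by symbol did not use. A promoter was found by gene number for 61 of the 81 genes, 54 of them core genes. Each line gives 40 bases before and 25 bases after the annotated start, on the strand of the gene, with runs of at least 8 pyrimidines (C or T) in capitals. Rps18 and Rpl7a are 2 of the 3 genes that differed between the groups, Rps6 is the S6 kinase substrate, Rpl28 is among the most abundant members, Rps10 has the second longest run shown and Rps27l is a paralogue.
Rps18, chr17:33955641-33955705, minus strand: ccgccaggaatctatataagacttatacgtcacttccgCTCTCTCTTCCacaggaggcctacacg
Rpl7a, chr2:26910767-26910831, plus strand: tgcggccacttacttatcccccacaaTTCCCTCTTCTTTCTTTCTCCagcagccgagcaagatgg
Rps6, chr4:86857343-86857407, minus strand: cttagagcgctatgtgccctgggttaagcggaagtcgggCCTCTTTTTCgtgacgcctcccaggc
Rpl28, chr7:4792925-4792989, plus strand: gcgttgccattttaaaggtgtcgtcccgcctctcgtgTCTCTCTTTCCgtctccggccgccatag
Rps10, chr17:27635220-27635284, minus strand: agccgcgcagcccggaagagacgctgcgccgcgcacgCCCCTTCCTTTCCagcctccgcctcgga
Rps27l, chr9:66946046-66946110, plus strand: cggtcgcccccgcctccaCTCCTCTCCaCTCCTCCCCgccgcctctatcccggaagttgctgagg

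In the first 5 the run spans the annotated start and is 10 to 21 bases long. RefSeq lists 2 promoters for Rps27l, of which only the first is shown. In the one shown there were 2 runs, both before the start. Between 30 bases before and 50 bases after the start, such a run was present on the gene's strand in 44 of 54 core genes (81.5%) and in 32.2% of 26964 other genes with a promoter in the table. The motif CCGGAAG, bound by ETS family factors such as GABP, was searched on both strands of the whole 300-base promoter. It was found in 22 core genes (40.7%) and in 9.9% of other genes. The motif AAGATGG, searched in the same way, was found in 9 core genes (16.7%) and in 7.3% of other genes, and TATAA, searched on the gene's strand from 40 to 16 bases before the start, in 4 core genes (7.4%) and in 4.2%. A match describes the letters in the window and is not evidence of binding.

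The sequencing depth was similar in all libraries, with total expected counts (estimated numbers of fragments per gene) from 14064700 to 14700100. Adipoq, which encodes adiponectin and defines fat cells, was at 2614 ± 181 FPKM in WT (a level per transcript length and sequencing depth) and 2457 ± 133 FPKM in the knockout-labelled libraries (SD, n = 4). Abcc4 did not check the labels, since it lay between 3.33 and 3.81 FPKM in WT and between 3.31 and 3.89 FPKM in the knockout-labelled libraries (exact two-sided permutation p = 0.571, where 4 against 4 libraries allow no p below 0.0286). Every direction below therefore rests on the labels.

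Ribosomal protein genes were among the most abundant in this fat pad. The core genes had a median level of 285.5 FPKM over the 8 libraries, against 8.18 FPKM over all 14257 tested genes. A mean of at least 100 FPKM was reached by 70 of the 73 core genes, out of 684 genes in the whole table. The quartiles of the core genes were 211 and 339.7 FPKM. The median was 246 FPKM for the large subunit and 306 FPKM for the small subunit. The core genes had a median deposited transcript length of 708 bases, against 2802 bases for all tested genes. The 81 genes together took 4.4% to 5% of all FPKM but 1.32% to 1.5% of all expected counts.

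Rpl41, which encodes a very short basic peptide of the large subunit, was the highest of the 81 genes. It read 811, 753, 782 and 695 FPKM in WT replicates 1, 2, 3 and 4, and 739, 706, 725 and 627 FPKM in replicates 1, 2, 4 and 5 under the knockout label. Rps2, a small subunit protein near the messenger RNA entry channel, followed at 635 ± 29.7 and 582 ± 38.2 FPKM in the 2 groups. Rpl41 exceeded Rps2 in every library. Next came Rpl23a, which lies at the exit of the peptide tunnel (568 ± 51.4 and 512 ± 27.2 FPKM), and Rpl28 (539 ± 35.5 and 519 ± 23.8 FPKM). Rpl10, which joins the large subunit late in its assembly (497 ± 22.7 and 487 ± 20.8 FPKM), and Rps27 (452 ± 26.8 and 446 ± 27 FPKM) completed the highest 6. From Rps2 down, the levels of genes next to each other in this order overlapped over the 8 libraries.

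At the low end of the core genes were Rps15a and Rpl22. Rps15a was at 13.6 ± 1.3 FPKM in WT and 13.9 ± 0.757 FPKM in the knockout-labelled libraries. Its deposited length was 5158 bases, more than any other core gene (the next was 2178 bases), and this length enters its FPKM. By mean expected count it had 1021, above the 838 of Rpl36a, whose level was 131 FPKM at a length of 497 bases. Rpl22, a large subunit protein, was at 41 ± 1.98 and 42 ± 1.72 FPKM with a length of 2178 bases. The low values of both thus stand beside the longest deposited transcripts of the core set.

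The order of levels within the family was nearly the same in every library. Spearman's rho between the levels of the 73 core genes in any 2 libraries was 0.962 to 0.988, a description across genes that are not independent. The spread between libraries was small. The median coefficient of variation of the core genes was 6.43% in WT and 5.54% in the knockout-labelled libraries, against 11.5% and 7.9% for the other 614 tested genes whose mean reached 100 FPKM.

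**Figure D1:**
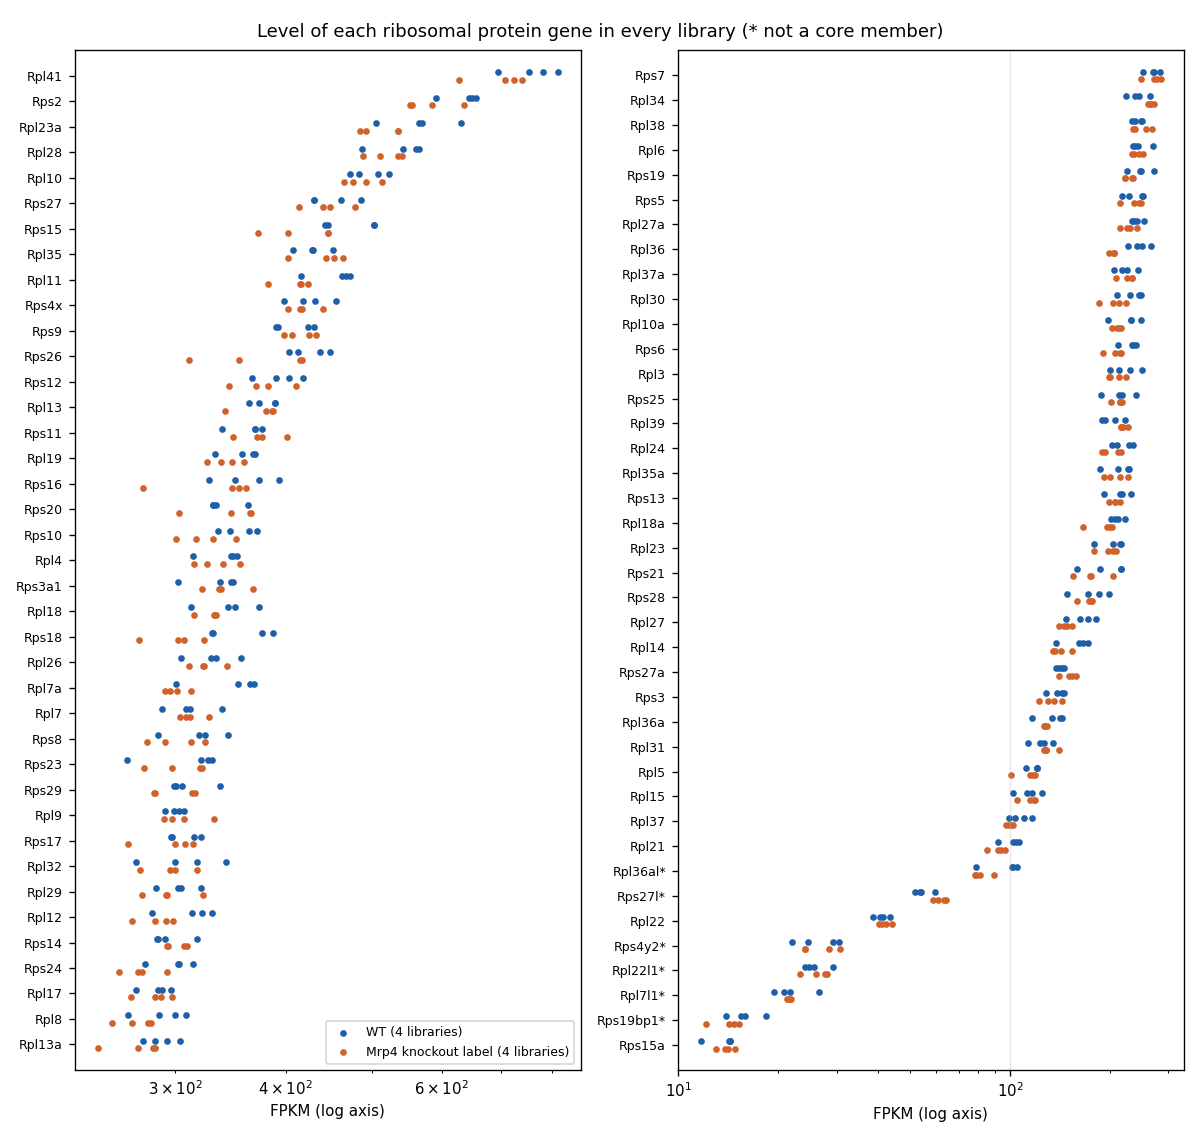
FPKM (log axis) of the 79 members whose mean reached 1 FPKM, 1 point per library, WT in blue and the knockout-labelled libraries in orange, sorted by mean from Rpl41 at the top left to Rps15a at the bottom right. The points of both groups lie close together for nearly every gene, and paralogues and Rps19bp1 (asterisks) fill most of the lower end.

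Libraries differed in how much ribosomal protein RNA they held, and the difference ran through most members at once. The 81 genes took 5%, 4.62%, 4.99% and 4.9% of all FPKM in WT replicates 1, 2, 3 and 4. They took 4.98%, 4.79%, 4.77% and 4.4% in replicates 1, 2, 4 and 5 under the knockout label. The group means were 4.88 ± 0.175% and 4.74 ± 0.245% (SD, n = 4), and the groups overlapped. The difference of -0.143 percentage points was -0.03 without knockout-labelled replicate 5, -0.224 without knockout-labelled replicate 1 and -0.227 without WT replicate 2. WT replicate 2 was the lowest WT library for 53 of the 73 core genes and the highest for 0. Replicate 5 was the lowest of the knockout-labelled libraries for 63 core genes, and replicate 1 the highest for 46.

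On the scale of log2 CPM (counts relative to library size), after scaling with TMM factors (see the processing section), WT replicates 1, 3 and 4 lay above the genes' own means, by a median of 0.11, 0.10 and 0.10 over the core genes. WT replicate 2 lay below, at -0.07, beside -0.01, -0.04, -0.04 and -0.12 in replicates 1, 2, 4 and 5 under the knockout label. WT replicate 2 thus had a lower median than 3 of the 4 libraries of the other group. It also stood apart in Crisp1 (13.5 FPKM) and Spink8 (3.07 FPKM), from a list of 10 markers of epididymis and testis, which adjoin this fat pad. Each other gene of this list was at 0.28 FPKM or less in it. The 10 genes summed to 17.2 FPKM in it and to 0.8 to 1.51 FPKM in the other 3 WT libraries. In the knockout-labelled libraries they summed to 0.28 to 0.38 FPKM. None of the 10 passed the filter on low counts, and their part in the ribosomal protein values of that library was not tested. The balance between the subunits moved little. Summed FPKM of the large subunit genes was 1.30 ± 0.00913 times that of the small subunit genes in WT and 1.30 ± 0.0268 times in the knockout-labelled libraries, with the highest ratio, 1.33, in replicate 5.

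**Figure D2:**
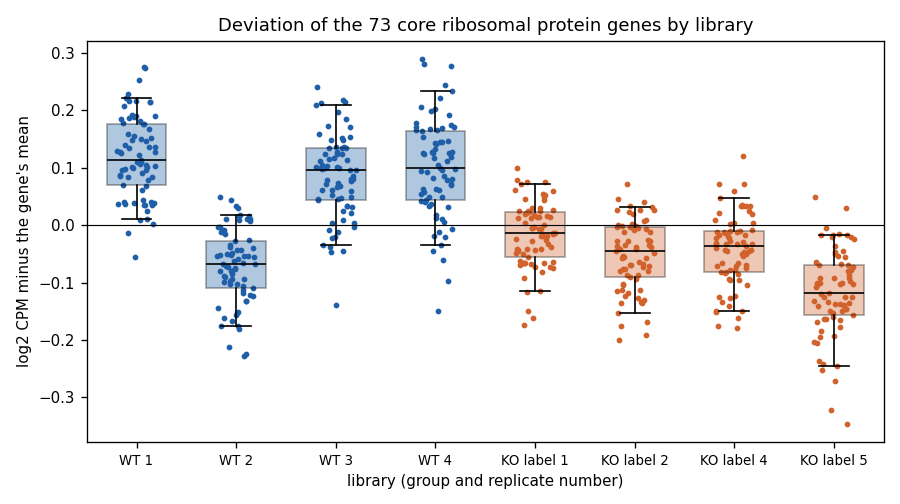
Deviation of each of the 73 core genes from its own mean over the 8 libraries, in log2 CPM; each point is a gene, the line in a box the median, the box the quartiles and the whiskers the 5th to 95th percentile. WT replicates 1, 3 and 4 sit above 0, while WT replicate 2 sits with the knockout-labelled libraries, of which replicate 5 is lowest.

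Few ribosomal protein genes differed between the groups. Of the 81 genes, 79 passed the filter on low counts and were tested, and 3 of them (Rpl36, Rps18 and Rpl7a) had less RNA under the Mrp4 knockout label. None was higher (edgeR's quasi-likelihood test, Benjamini-Hochberg adjusted p under 0.05). Among all 14257 tested genes 18.3% differed, 8.05% lower and 10.2% higher, so the members' share of 3.8% lower was below the background in this fit. The background split itself depends on scaling, with 1148 lower and 1458 higher here but 680 lower and 1950 higher when libraries were scaled by size alone. At an unadjusted p under 0.05 there were 24 members lower (30.4%) and 0 higher, where 16.6% of all tested genes were lower. Other settings gave from 0 to 19 members lower: DESeq2 gave 13 lower (16.5%) and 0 higher where it called 10.7% of all genes lower, and leaving out WT replicate 2 gave 19 (24.1%) where 11.8% of all genes were lower. Under these 3 criteria the members' share lay above the background, so its place relative to the background depends on the setting. With the replicate number as a block 0 were lower, where only 0.217% of all tested genes were. With libraries scaled by size alone, with the length trend removed or with limma on FPKM 1 was lower (1.27%). The background was then 4.77% by size alone, 8.45% with the length trend removed and 4.71% or 4.78% with limma. Leaving out any other single library gave 1 or 2 (1.27% or 2.53%), where 3.13% to 4.48% of all tested genes were lower.

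Rpl36 (gene 54217), a large subunit protein, had the clearest difference. It read 266, 227, 250.1 and 241 FPKM in WT replicates 1, 2, 3 and 4, and 207, 206, 206 and 199.5 FPKM in replicates 1, 2, 4 and 5 under the knockout label. The groups did not overlap, and the 4 knockout-labelled libraries lay close together. The log2 fold change was -0.32 ± 0.06 (SE; 95% interval of the fold 0.727 to 0.889; adjusted p = 0.0135). It passed in all 8 fits that left out 1 library and in 10 of 11 other settings; with the replicate block it did not (-0.31, adjusted p = 0.12).

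Rps18 (gene 20084), a small subunit protein of the head that faces the large subunit, read 387, 330.0, 376 and 331 FPKM in WT replicates 1, 2, 3 and 4. It read 323, 307, 302 and 273 FPKM in the knockout-labelled libraries, all below the lowest WT library. The log2 fold change was -0.29 ± 0.08 (adjusted p = 0.0299). The call was lost in 6 of the 8 fits without 1 library (all but those without WT replicate 2 or replicate 1 under the knockout label), with values from -0.34 to -0.25, and in 5 of 11 other settings. Its nearest WT and knockout-labelled libraries were 330.0 and 323 FPKM.

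Rpl7a (gene 27176), a large subunit protein, read 364, 301, 368 and 353 FPKM in WT and 313, 302, 296 and 292 FPKM in the knockout-labelled libraries. WT replicate 2 lay inside the range of the other group, so the groups overlapped. The log2 fold change was -0.26 ± 0.08 (adjusted p = 0.0493), close to the threshold. It passed in 1 of 8 fits without a library, the one without WT replicate 2 (-0.34), and in 2 of 11 other settings.

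Rpl36 and Rps18 were the only members whose groups did not overlap in FPKM, 2.53% of the tested members, where 7.08% of all tested genes lay wholly lower. No member lay wholly higher, where 16.4% of all tested genes did. The next lowest p was that of Rps15 (-0.24, adjusted p = 0.064), followed by Rpl11, Rpl30, Rpl21, Rpl36al and Rps6.

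**Figure D3:**
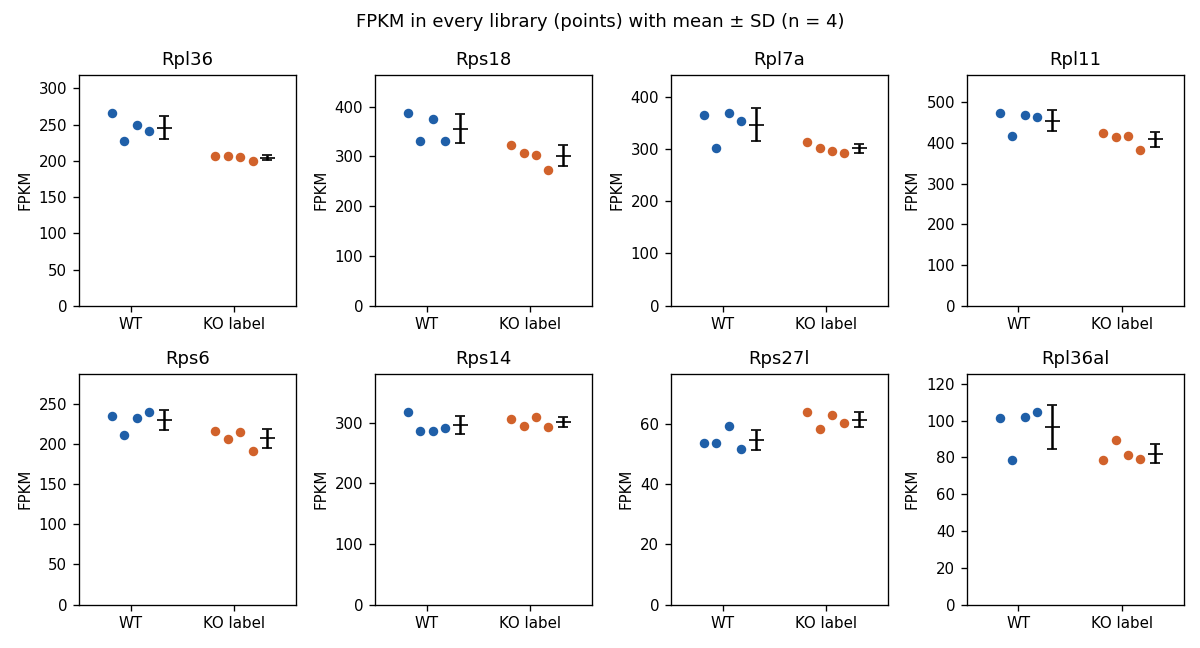
FPKM of 8 members in every library, with points in the order of the replicate numbers and the mean ± SD of each group (n = 4) beside them; the axes start at 0. The groups are apart in Rpl36 and Rps18 and overlap in the other 6 genes. WT replicate 2 is the lowest WT point in Rpl36, Rps18, Rpl7a, Rpl11, Rps6 and Rpl36al.

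The estimates for the whole family were small and precise. The log2 fold changes of the 79 tested members ran from -0.32 (Rpl36) to 0.12 (Rps27l), with standard errors from 0.06 to 0.12. The 95% interval lay wholly within 0.5 of 0 on the log2 scale for 78 of them, all but Rpl36al. In 65 members (82.3%) the estimate itself lay within 0.2 of 0, as in 51.6% of all tested genes. The quartiles of the members were -0.18 and -0.06, and those of all tested genes -0.17 and 0.22.

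The median of the members was -0.11, beside 0.00 (-0.003) for all tested genes, and 73 of the 79 estimates were below 0. This number was 55 when libraries were scaled by size alone and 59 with the length trend removed. Relative to the median of all genes the members' median was -0.10 with TMM factors and -0.10 by library size alone, but -0.05 with the trend on transcript length removed. The large subunit had 39 of 43 estimates below 0 (median -0.12) and the small subunit 29 of 30 (median -0.10). Members vary together across libraries, so these counts are no independent evidence of a fall.

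Markers of other cell types differed between the groups in the same libraries. All 14 hepatocyte markers rose, with summed levels from 51 to 128 FPKM in WT and from 815 to 1530.0 FPKM in the knockout-labelled libraries. Of 15 macrophage markers 6 rose and 0 fell (1302 to 1590.0 and 1565 to 2257 FPKM), and of 15 proliferation genes 11 rose (37.8 to 40.9 and 49 to 64.3 FPKM). Of 12 adipocyte markers 5 fell, 0 rose and 7 missed the threshold. The sum of all 12 ranged from 32010.0 to 36290.0 FPKM in WT and from 26150.0 to 30740.0 FPKM in the other group. Cfd, which fell from 9813 ± 2510 to 3466 ± 1450 FPKM, weighs heavily in this sum. Among the 7, the log2 fold changes of Fabp4, Cidec and Lpl were above 0 (0.123, 0.245 and 0.086). Those of Adipoq, Lipe, Pnpla2 and Pparg were below 0 (-0.15, -0.261, -0.111 and -0.03). Endothelial markers were mixed, with 5 of 11 higher and Plvap lower (381.5 to 536.8 and 579 to 619 FPKM), as were progenitor markers, with 4 of 11 higher and Dcn lower (4839 to 6194 and 5307 to 6294 FPKM). Of 9 mesothelial markers 1, Wt1, fell (173.9 to 275 and 65.6 to 175.4 FPKM; median log2 fold change -0.86). Of 10 tested lymphocyte markers 1, Cd79b, rose (10.2 to 12.7 and 14.8 to 21.8 FPKM). None of these markers was at 0 in every library. Their part in the ribosomal protein values was not tested, and in bulk tissue fewer cells of a type and less RNA per cell cannot be told apart.

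**Figure D4:**
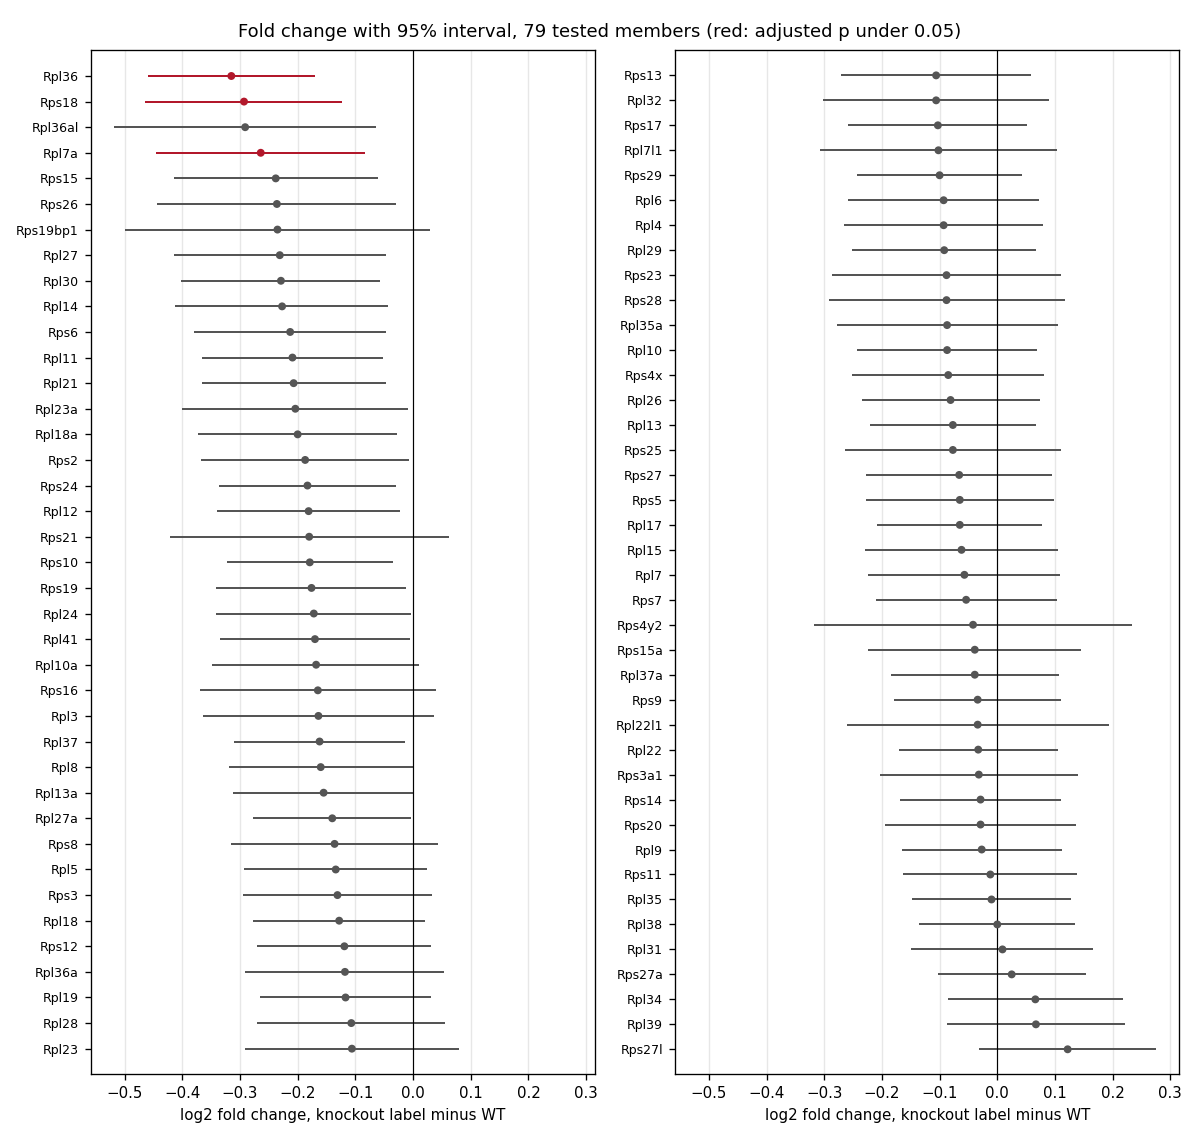
Log2 fold change (knockout label minus WT) of the 79 tested members with 95% intervals, sorted from the lowest at the top left; red marks the 3 members with an adjusted p under 0.05. Most points lie slightly below 0 and nearly all intervals stay within 0.5 of it.

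The members best known for a role beyond the ribosome, or for a human disease, did not pass in the edgeR fit of all 8 libraries. Rps6, the substrate of S6 kinase, read 235, 212, 233 and 240.2 FPKM in WT and 216, 207, 215 and 191 FPKM in the knockout-labelled libraries. WT replicate 2 lay inside the other group's range. The log2 fold change was -0.21 ± 0.07 (95% interval of the fold 0.769 to 0.968; adjusted p = 0.0729), and it passed with DESeq2 and without WT replicate 2.

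Rpl11 and Rpl5 form a particle with a ribosomal RNA that, when ribosome assembly stalls, binds Mdm2 and so stabilises p53. Rpl11 read 473, 416, 468 and 463.5 FPKM in WT and 424, 415, 416 and 382 FPKM in the knockout-labelled libraries, again with WT replicate 2 inside the range of the other group. Its log2 fold change was -0.21 ± 0.07 (adjusted p = 0.0653), and like Rps6 it passed with DESeq2 and without WT replicate 2. Rpl5 had a value of -0.13 (95% interval -0.29 to 0.02; adjusted p = 0.204), at 118 ± 4.43 and 113 ± 8.26 FPKM. Of 12 genes of the p53 response to this signal, such as Mdm2 and Cdkn1a, 0 rose and 0 fell by edgeR and by DESeq2, with 1 higher and 0 lower at an unadjusted p under 0.05.

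Rps19 and Rps14 are small subunit proteins whose loss in humans is tied to anaemia. Rps19 was at 248 ± 18.9 and 228 ± 7.03 FPKM (-0.18, adjusted p = 0.119) and passed without WT replicate 2; its counts were fractional in 7 of 8 libraries. Rps14 was at 296 ± 14.9 and 301 ± 8.05 FPKM, and its log2 fold change of -0.03 (95% interval -0.17 to 0.11) changed sign to 0.04 by library size alone. Rps27a, made as a fusion of ubiquitin with a small subunit protein, was at 142 ± 3.5 and 151 ± 7.29 FPKM (0.03, 95% interval -0.10 to 0.15; adjusted p = 0.784).

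FPKM and log2 fold changes differ slightly in scale. FPKM carries no TMM factor, and the median of all tested genes was 0.06 with limma on log2(FPKM + 0.1) against -0.003 in the edgeR fit. A gene with equal FPKM in both groups, such as Rps14, therefore has a log2 fold change slightly below 0.

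The mean levels of the 7 paralogues ranged from near 0 to 89.3 FPKM. None passed among the 5 that were tested. Rpl36al, a close copy of Rpl36a, was the highest and read 101, 78.9, 102 and 105 FPKM in WT and 78.3, 89.3, 81.4 and 79.1 FPKM in the knockout-labelled libraries. WT replicate 2 again lay with the other group. Its log2 fold change was -0.29 ± 0.10, nearly as large as that of Rpl36, with a wider interval (-0.52 to -0.06; adjusted p = 0.0726), and it passed without WT replicate 2. Rpl36al stood at 72.1 ± 4.4% of the level of Rpl36a in WT and at 64.1 ± 3.8% in the other group, and the ranges overlapped.

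Rps27l, a p53-inducible paralogue of Rps27, had the highest estimate of all members. It read 53.7, 53.8, 59.4 and 51.7 FPKM in WT and 64, 58.5, 63.1 and 60.5 FPKM in the knockout-labelled libraries. WT replicate 3 was above the lowest knockout-labelled library, so the groups overlapped. The log2 fold change was 0.12 ± 0.07 (95% interval -0.03 to 0.28; adjusted p = 0.234). Relative to Rps27 it stood at 12.1 ± 1.34% in WT and 13.8 ± 0.731% in the other group, with overlapping ranges.

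Rpl22l1, the paralogue of Rpl22, was at 26 ± 2.28 and 26.2 ± 2.14 FPKM, or 63.5 ± 7.04% and 62.5 ± 3.89% of Rpl22. Its log2 fold change of -0.03 (95% interval -0.26 to 0.19) rested on 140.0 to 178 expected counts per library. Rpl7l1, a relative of Rpl7, was at 22.1 ± 3.09 and 21.5 ± 0.277 FPKM (-0.10, 95% interval -0.31 to 0.10), and its spread in WT came from replicate 1 at 26.5 FPKM. Rps4y2, which RefSeq (GRCm38.p6) lists as the transcribed pseudogene Rps4l, was at 26.6 ± 3.98 and 26.8 ± 3.34 FPKM, 6.29 ± 1.27% and 6.43 ± 1.01% of Rps4x.

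The other 2 paralogues were removed by the filter. Rpl3l, the striated muscle form of Rpl3, had at most 2 expected counts in any library. Rpl39l, best known from male germ cells, had at most 4. Rps19bp1, the member that is not a ribosomal protein, was at 15.9 ± 1.84 and 14.1 ± 1.37 FPKM (-0.24, 95% interval -0.50 to 0.03; adjusted p = 0.184).

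Ribosomal protein genes have many processed pseudogenes, which can share reads with them. A fractional expected count in some library, a sign of divided reads, was seen in 13 of the 81 genes, and 84% had a whole count in every library (within 1e-06), against 89.9% of all genes. Rps2, Rps26, Rpl31, Rps15a and Rpl7l1 were fractional in all 8 libraries, and Rpl34, Rps19, Rpl30, Rpl37 and Rpl22l1 in 7. Pseudogenes with rows of their own held up to 142 expected counts (Rpl31-ps12) and 84.1 (Rps15a-ps6). How far shared reads moved the members' values was not tested. Among the 3 genes that passed, Rpl36 and Rps18 were whole in all 8 libraries and Rpl7a in 7. A whole count does not exclude reads from pseudogenes that have no row of their own.

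Some ribosomal proteins have other kinds of symbols. Rplp1, at a mean of 823.6 FPKM over all libraries, lay above Rpl41 (729.7 FPKM), the highest of the members. Of the stalk proteins that recruit elongation factors, Rplp2 had a value of -0.29 (adjusted p = 0.061), which passed with DESeq2 and without WT replicate 2, and Rplp1 of -0.13 (adjusted p = 0.291). Rpsa, which doubles as a laminin receptor, had -0.22 (adjusted p = 0.157). Fau, made as a fusion of a ubiquitin-like protein with a small subunit protein, was at 284 ± 24.5 and 299 ± 15.9 FPKM (0.02, 95% interval -0.14 to 0.18).

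Genes that build ribosomes had a larger share of falls than the ribosomal proteins themselves, a difference that was not tested. In a list of 65 ribosome biogenesis genes, 14 fell, 0 rose and the other 51 missed the threshold, with a median of -0.14. Among all tested genes 8.05% fell and 10.2% rose. Ddx56, a nucleolar helicase, fell from 10.8 ± 0.514 to 9.13 ± 0.235 FPKM (-0.31, adjusted p = 0.0151), and Dkc1, the pseudouridine synthase dyskerin, from 7.37 ± 0.362 to 5.97 ± 0.428 FPKM (-0.37, adjusted p = 0.0177). Rrs1, an assembly factor of the large subunit, fell from 14.6 ± 2.2 to 10.4 ± 1.36 FPKM (-0.56, adjusted p = 0.0193), and the helicase gene Ddx21 by 0.30 on the log2 scale (adjusted p = 0.0266). Leaving out 1 library other than WT replicate 2 left 2 to 5 of the list that differed, without WT replicate 2 there were 17, and scaling by size alone left 3. In RNA polymerase I, which makes ribosomal RNA, of 19 genes 0 rose and 0 fell with edgeR, 1 fell with DESeq2, and 5 were lower and 0 higher at an unadjusted p under 0.05. Of all tested genes 10.7% fell with DESeq2 and 16.6% were lower at an unadjusted edgeR p under 0.05. The lowest p belonged to Polr2l (-0.28, adjusted p = 0.0534) and Polr1c (-0.31, adjusted p = 0.0979).

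Initiation factors also had more falls than rises, where 8.05% of all tested genes fell and 10.2% rose. In the 37 initiation genes there were 8 that fell, 0 that rose and 29 short of the threshold, with a median of -0.13. The list holds 13 subunits of eIF3, the complex that prepares the small subunit for initiation, of which 5 fell and 8 missed the threshold; whether that share stands out was not tested. Among them Eif3g fell from 52.1 ± 3.31 to 43 ± 3.33 FPKM (-0.34, adjusted p = 0.0201), Eif3d from 42.2 ± 3.78 to 35.1 ± 0.634 FPKM (-0.33, adjusted p = 0.0215) and Eif3a from 46.6 ± 3.9 to 39.2 ± 0.918 FPKM (-0.31, adjusted p = 0.0249). Eif2b3, a subunit of the exchange factor for eIF2, fell by 0.38 on the log2 scale (adjusted p = 0.0251). Leaving out 1 library other than WT replicate 2 left 0 to 4 initiation genes that differed, and without WT replicate 2 there were 14. In that last fit 3683 of all 14426 tested genes differed. Of 15 elongation and termination genes 1 rose, Eif5a2 (0.62, at 1.26 ± 0.171 and 2.04 ± 0.378 FPKM, adjusted p = 0.0249), and 2 fell, the ribosome recycling factor Abce1 (-0.22, adjusted p = 0.0331) and the selenocysteine elongation factor Eefsec (-0.43, adjusted p = 0.0347). Without 1 library from 0 to 5 of them differed, the most without WT replicate 2. Whether the elongation counts stand apart from the shares of all tested genes was not tested.

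For mTOR and S6 kinase signalling, 41 genes were tested: 4 rose, 3 fell and the other 34 missed the threshold, with a median of 0.00 (-0.004). Among all tested genes 10.2% rose and 8.05% fell, so these counts lie near the background. Myc, a transcription factor that drives ribosome synthesis, fell from 12 ± 2.22 to 7.79 ± 1.05 FPKM (-0.69 ± 0.14, adjusted p = 0.0128), and passed without any 1 library. Mycn, a paralogue of Myc in the same list, passed in the other direction (1.46). It was not among the genes followed through the other settings, and its level is not reported here. Akt1s1, which encodes the mTOR inhibitor PRAS40, fell (-0.27, adjusted p = 0.0342). Pdcd4, an S6 kinase target that restrains initiation, rose (17.3 ± 1.92 FPKM in WT, 22.7 ± 1.51 FPKM in the other group; 0.33, adjusted p = 0.0328). So did the kinase gene Rps6ka2, left out of the members, at 2.83 ± 0.559 and 4.14 ± 0.329 FPKM (0.48, adjusted p = 0.0278). Without 1 library other than WT replicate 2 the number that differed was 1 or 2, and without WT replicate 2 it was 7.

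The ribosome of mitochondria, whose proteins are encoded by other nuclear genes, was lower in a larger share of its genes. Its list held 76 tested genes: 21 fell, 1 rose and 54 missed the threshold, with a median of -0.24. Of all tested genes 8.05% fell and 10.2% rose. Mrps15 fell from 48.2 ± 7.99 to 32.4 ± 2.32 FPKM (-0.63, adjusted p = 0.00851) and Mrpl38 from 34.5 ± 3.5 to 23.9 ± 1.94 FPKM (-0.59, adjusted p = 0.00508), with Mrps34 at -0.58 and Mrpl51 at -0.44. The difference between the 2 families was not tested. Leaving out 1 library gave from 7 to 35 mitochondrial genes that differed, the highest without WT replicate 2.

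**Figure D5:**
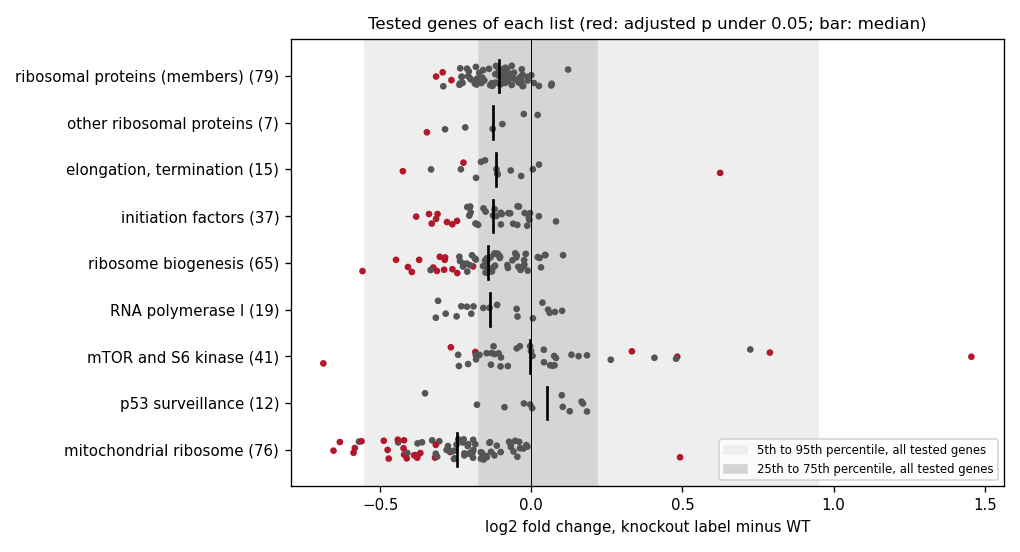
Log2 fold change (knockout label minus WT) of every tested gene of the ribosomal protein family and of related lists, with the number of tested genes in brackets; red points passed, the bar is the median and the grey bands span the quartiles and the 5th to 95th percentile of all 14257 tested genes. The 79 ribosomal protein genes lie close together around their median of -0.11, and the mitochondrial ribosome genes reach further down.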

How the data were processed

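Polyadenylated RNA of 8 libraries, 4 per group, was read as pairs of 100 bases on the BGISEQ-500 platform, per the labels' protocols. Per the submitters' processing notes, the build was mm9 and Bowtie2 was used. No source used here names the quantifier. For each gene and sample the deposited values, per the file headers, are a transcript length, an expected count (an estimated number of fragments) and an FPKM. A gene not listed in a file was taken as 0. Groups come from the genotype label. The deposited FPKM table of all samples was not used.

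After rounding the expected counts, edgeR 4.0.16 (under R 4.3.3) gave the test: filterByExpr (14257 genes kept, 4434 removed), TMM factors, robust quasi-likelihood fit on genotype alone, two-sided, with Benjamini-Hochberg adjustment over all tested genes and a threshold of 0.05. The SE is the log2 fold change divided by the root of F. FPKM values are mean ± SD. Log2 CPM used a prior count of 2. Alternatives were other scalings, filters, DESeq2 1.42.0, limma 3.58.1 (voom, or log2(FPKM + 1) and log2(FPKM + 0.1)), a loess trend on transcript length removed per library, the replicate block and each library left out. The scripts were tested on simulated data. Neither molecular identifiers nor the use of strand is stated in the labels.

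Genes named are the 6 highest and 6 lowest tested members, members that passed (up to 10 per direction), paralogues, Rps19bp1, Rps6, Rpl5, Rpl11, Rps19, Rps27a, Rps14, and up to 4 genes of each related list with the lowest p at a mean of at least 1 FPKM. Rps15, Rpl30, Rpl21, Rpl36a, Rps10, Adipoq, Wt1, Plvap, Dcn, Cd79b, Crisp1, Spink8, Fau, Mycn and the genes with fractional counts were chosen after their values were seen. The same holds for the other adipocyte markers named. The members and lists were chosen with earlier results of these data known. The result of 1 gene of the related lists is not reported here.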

Additional observations from a re-analysis of the deposited data

Results flagged for a closer look

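In 12 of 120 groups of 4 values examined (58 genes and 2 summed shares in each group), 1 library lay far from the other 3 by Dixon's criterion, which chance meets in about 1 group in 20. WT replicate 2 was the low library in 5 of them: Rps15a at 11.7 FPKM (others 14.3), Rpl36al at 78.9 FPKM (others 101 to 105), Rpl5 at 112 FPKM (others 121), Rpl11 at 416 FPKM (others 463.5 to 473) and the mitochondrial gene Mrpl38 at 29.2 FPKM (others 35.7 to 36.6). Rpl36 read 199.5 FPKM in knockout-labelled replicate 5 against 206 to 207 in the others, a small gap in a narrow group. Rpl3l was listed at 0.1 FPKM in WT replicate 3 and at 0.05 FPKM in knockout-labelled replicate 5 and at 0 in the others of each group, a matter of at most 2 expected counts. In the knockout-labelled libraries, replicate 4 was high for Polr2l (28.3 FPKM), Polr1c (11.9 FPKM) and Mrpl38 (26.9 FPKM), and replicate 2 for Eif2b3 (13.2 FPKM).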

How the results depend on the processing

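Rpl36 kept its call in 18 of 19 alternative fits, while the number of members lower, 3 in the edgeR fit, was 13 with DESeq2, 1 with the length trend removed, by library size alone and with limma on log2(FPKM + 1) or log2(FPKM + 0.1), 0 with the replicate block, and 1 to 19 without 1 library. The number higher was 0 in all settings run. Of all tested genes 10.7% were lower with DESeq2, 8.45% with the length trend removed and 4.77% by library size alone. With the replicate block 0.217% of all tested genes were lower, and without 1 library 3.13% to 11.8%. The median of the members was -0.036 by library size alone and -0.163 to -0.088 without 1 library. The difference in share of FPKM was -0.227 to -0.03 percentage points without 1 library. Of all tested genes 141 differed with the replicate block and 1172 to 3683 without 1 library. The replicate block used the 3 numbers that both groups share; libraries with the same number did not deviate together (r = 0.0107, -0.0746 and -0.128), so the numbers are not shown to pair them. With the block 0 genes differed among elongation, initiation, biogenesis, mTOR and mitochondrial ribosome genes and the ribosomal proteins outside the naming rule. DESeq2 gave 5 elongation genes, 2 ribosomal proteins outside the naming rule and 1 RNA polymerase I gene. Library size alone and limma on FPKM gave 1 elongation and 4 initiation genes and 3 and 4 biogenesis genes, and library size alone 14 mitochondrial ribosome genes. Without 1 library the counts were 0 to 2 outside the naming rule, 0 to 5 in elongation, 0 to 14 in initiation, 2 to 17 in biogenesis, 0 to 2 in RNA polymerase I, 1 to 7 in mTOR and 7 to 35 in the mitochondrial ribosome. The cause of these shifts was not tested.

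Values near 0 that did not pass in any setting changed sign in some. By library size alone, with limma on log2(FPKM + 0.1) and on log2(FPKM + 1), Abcc4 became 0.018, 0.035 and 0.028, Rps15a 0.031, 0.032 and 0.03, Rpl22l1 0.035, 0.016 and 0.015, Rps4y2 0.022, 0.018 and 0.017, Rpl22 0.036, 0.035 and 0.034 and Rps14 0.039, 0.027 and 0.027; Rps27 became 0.003 by library size alone. With the length trend removed, Rps27 was 0.047, Rpl22l1 0.062, Rps4y2 0.003 and Rps14 0.048, and with the replicate block Abcc4 was 0.015 and Rps15a 0.01. Without 1 library, the range was -0.07 to 0.028 for Rpl22l1, -0.122 to 0.015 for Rps4y2, -0.073 to 0.002 for Rpl22, -0.058 to 0.007 for Rps14 and -0.004 to 0.05 for Rps27a. The other values of the 55 tested named genes kept their direction, 123 of 1045 with a call lost and 16 with a call gained. The median standard error of the members, 0.07 on the log2 scale, limits what could be detected with 4 libraries per group.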
